A study of Mus musculus with 42 samples.

Results

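Input RNA from adult mouse testes was compared between mice that lack PCIF1 (Pcif1 knockout, KO) and heterozygous mice (HET), with 3 libraries in each genotype. Genes with a deposited value of at least 10 in at least 3 of these 6 libraries were kept, which left 11278 of the 27409 genes in the testes table. KO mice carry on both alleles, and HET mice on 1 allele, an 89 bp Cas9 deletion in the exon 15 and intron 16 region of Pcif1, from 1 mouse line, and the labels state that part of the catalytic site is lost and translation stops early. No wild-type testes belong to this comparison, so its control still carries 1 mutant allele, and all 6 libraries come from animals with the mutation. The line descends from embryos of the B6D2F1/J hybrid of C57BL/6J and DBA/2J, and mating of the founders was with C57BL/6J. The libraries are the inputs of m6Am-Exo-Seq, an assay that enriches capped RNA ends and precipitates methylated ones, and the labels describe no other treatment of the animals. The study asked which transcripts change in level without PCIF1 in mouse tissues.

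PCIF1 is the methyltransferase that adds a methyl group to the base of an adenosine next to the mRNA cap, when that adenosine is the first transcribed nucleotide, which gives m6Am. It binds the tail of RNA polymerase II and acts on nascent capped transcripts. METTL3 makes the related mark m6A inside transcripts. Adult testes hold germ cells at all stages, from mitotic spermatogonia through meiotic spermatocytes to haploid round and elongating spermatids, which build the acrosome and the flagellum, with Sertoli, Leydig and other somatic cells around them.

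The libraries held 4151226 to 4971554 reads each, and protein-coding genes took 86.4 to 89.3% of them. In a principal component analysis the first component separated the genotypes and took 43.4% of the variance, and KO replicate 1 stood apart on the second, which took 16.8%. Spermatocyte and spermatid markers such as Ccna1 (634 to 767 per library), Crem and Oaz3 were present, which fits the labelled tissue. Some defining spermatid genes were nearly absent in both genotypes. Prm1, a protamine, was at 2.45 or less and Odf1, an outer dense fibre protein, at 0.797 or less in every library. The cause was not tested, and the other protamine gene Prm2 was present, at 89.2 to 130 per library. Pcif1 itself (chromosome 2) lay below the filter, at 5.53, 7.39 and 10.4 in HET and 7.98, 6.75 and 1.64 in KO. Its groups overlapped, and a gene total cannot show so small a deletion, so these values check no label. Reads at Gm42418, a non-coding gene model that overlaps the 45S ribosomal RNA repeat, took 0.242 to 0.282% of HET reads and 0.3995 to 0.762% of KO reads.

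The sequences below end at the annotated first transcribed base, the base that carries m6Am when it is an adenosine, and are shown for members that the results turn on. They are RefSeq windows of GRCm38.p6, from 50 bases upstream to the annotated 5′-most start, written 5′ to 3′ on the gene's own strand, with the first transcribed base in capitals. The start sites are annotated, not measured in these libraries. The table of promoters has no entry for Crem, Ddx6, Sfi1 and Meiob.
Uqcc2, chr17:27133891-27133941, minus strand: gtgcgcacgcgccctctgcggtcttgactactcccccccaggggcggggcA
Tfb1m, chr17:3557755-3557805, minus strand: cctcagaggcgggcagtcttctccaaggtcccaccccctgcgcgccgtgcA
Ccnb1ip1, chr14:50795728-50795778, minus strand: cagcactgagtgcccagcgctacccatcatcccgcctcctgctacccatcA
Catsper4, chr4:134227383-134227433, minus strand: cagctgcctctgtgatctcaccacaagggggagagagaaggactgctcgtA
Rsph3b, chr17:6948356-6948406, minus strand: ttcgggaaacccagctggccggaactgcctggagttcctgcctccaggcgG
Fbxw5, chr2:25500700-25500750, plus strand: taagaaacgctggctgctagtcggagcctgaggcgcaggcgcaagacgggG
Paxx, chr2:25461094-25461144, minus strand: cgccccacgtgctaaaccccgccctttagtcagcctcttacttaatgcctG
Zpbp, chr11:11462419-11462469, minus strand: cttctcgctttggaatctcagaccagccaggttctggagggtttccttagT
Mettl3, chr14:52305124-52305174, minus strand: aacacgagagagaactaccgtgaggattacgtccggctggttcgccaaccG
Among the genes shown, Uqcc2, Tfb1m, Ccnb1ip1 and Catsper4 fell in KO and have an annotated start at adenosine. Rsph3b, Fbxw5, Paxx and Zpbp also fell and start at another base, and Mettl3, which rose, starts at G.

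Of the 11278 genes tested with limma on log2(signal + 1), with a Benjamini-Hochberg adjusted p below 0.05, 374 rose in KO (3.32%) and 678 fell (6.01%), together 9.33%. The groups did not overlap for 1047 of these 1052 genes, and for 3356 of all 11278 tested genes (29.8%). Separation of a called gene, where it is mentioned below, therefore adds no support beyond the call. The genes named next for the size of their fold were chosen among called genes without overlap, so that their separation is part of the choice. Most changes were small, with a median log2 fold of 0.56 among genes that rose and -0.53 among genes that fell, and 57 (0.505%) and 75 (0.665%) changed by over 1 log2 unit. The balance of directions depended on the scaling: when every library was set to the same total, 581 genes were higher and 463 lower, while the median of all genes moved from -0.00 to 0.06. The number called was 1445 without KO replicate 1, but 621, 508 and 275 without HET replicates 1, 2 and 3, and 456 and 469 without KO replicates 2 and 3. With the spread estimated over all 12 testes libraries, precipitated ones included, 9 genes were higher and 15 lower. Because nothing in the labels ties a library to 1 animal, p-values measure the spread between these libraries.

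The genes with given symbols that fell most were Rsph3b, Uqcc2, Tfb1m and Fbxw5. Rsph3b (ENSMUSG00000023806, chromosome 17), a radial spoke protein of the axoneme, had a signal of 449, 273 and 390.3 in HET and 96.6, 89.2 and 94.9 in KO. The lowest HET library was still well above every KO library, and the log2 fold was -1.95 ± 0.156 (SE, n = 3 per genotype; limma, Benjamini-Hochberg adjusted p = 1.22e-05). Uqcc2 (ENSMUSG00000024208, chromosome 17), an assembly factor of respiratory complex III, stood at 245, 153 and 217 in HET and 49.6, 50.2 and 56.5 in KO. Tfb1m (ENSMUSG00000036983, chromosome 17), which methylates mitochondrial ribosomal RNA, stood at 113, 90.5 and 115 against 34.6, 43.5 and 21.3. For both, every KO library was below every HET library, as the rule that picked these genes requires, and the log2 folds were -1.93 ± 0.170 and -1.70 ± 0.230 (SE).

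Fbxw5 (ENSMUSG00000015095, chromosome 2), a substrate adaptor of a ubiquitin ligase, was the most abundant of the large fallers by signal, at 6628, 7716 and 7520.3 in HET and 3511, 1788 and 2002 in KO. KO replicate 1 lay between the other KO libraries and HET, and the log2 fold was -1.65 ± 0.177 (limma, Benjamini-Hochberg adjusted p = 0.000199). Paxx (chromosome 2), a factor of DNA end joining, had 421, 506 and 397 in HET and 181, 129 and 185 in KO. Ccnb1ip1 (chromosome 14), needed for meiotic crossovers, had 131, 109.9 and 109.9 in HET and 23.9, 54.8 and 53.2 in KO. Its log2 fold was -1.48 ± 0.255. Sema4c, a semaphorin, fell by 1.19 on the log2 scale, and Ell, an elongation factor of RNA polymerase II, by 1.12. Sh2d6 fell by 1.44. These 6 genes kept the call whichever library was left out.

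Other large fallers rested on fewer libraries. Pfdn6, a prefoldin subunit (log2 fold -1.247 ± 0.253), was not called without HET replicate 3, and Cfap100, a ciliary protein (-1.12 ± 0.236), was not called without HET replicate 2. Fam83e read 81.4, 86.8 and 89.2 in HET and 75.3, 26.2 and 26.2 in KO, so that KO replicate 1 sat just under HET. It was not called without KO replicate 2 or 3 or any single HET library, nor by DESeq2 (adjusted p = 0.183). Ppp1r2-ps1 and Ppp1r2-ps6 are pseudogenes of a protein phosphatase inhibitor whose values agree within 1% in all 6 libraries, so their reads cannot be told apart, and Ppp1r2-ps1 fell by 1.254 on the log2 scale.

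The genes with given symbols that rose most were Atp6v0c-ps2, Mpc1-ps, Sfi1 and Ddx6. Atp6v0c-ps2, a pseudogene of a proton pump subunit, had 77.5, 459 and 78.9 in HET and 964, 1264 and 1132 in KO. Mpc1-ps, a pseudogene of the mitochondrial pyruvate carrier, had 19.8, 115 and 27.1 in HET and 249, 232 and 241 in KO. In both, HET replicate 2 lay between the other HET libraries and KO, and reads of the parent genes could be shared with them. Sfi1 (ENSMUSG00000023764, chromosome 11), a centrin-binding protein, had 81.4, 140.4 and 103 in HET and 344, 742 and 772 in KO. Its log2 fold was 2.45 ± 0.255 (limma, Benjamini-Hochberg adjusted p = 0.000152). KO replicate 1 was the lowest KO library and still above all of HET.

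Ddx6, a helicase of mRNA decapping and P-bodies, had 38.7, 28.6 and 35.8 in HET and 67.3, 87.0 and 92.5 in KO. Its log2 fold was 1.23 ± 0.192. Ktn1, the kinesin anchor kinectin, rose from 48.5 ± 14.05 to 107 ± 21.2 (SD, n = 3), and Meiob, a meiotic recombination factor, from 68.2 ± 17.8 to 132 ± 5.88. Ano6, a membrane scramblase, rose by a log2 fold of 0.94 ± 0.181, and Tuft1 by 0.96 ± 0.191. These 5 genes kept the call whichever library was left out. Arhgef40, Cmtm7, Dlk1, Smagp and Smim10l1 rose by log2 folds of 0.94 to 1.09, and each lost its call without KO replicate 2. Arhgef40, Cmtm7 and Smim10l1 lost it also without HET replicate 1 or 3, Smagp without HET replicate 2 or 3, and Dlk1 without HET replicate 2. Smim10l1 was not called without KO replicate 3 and was also not called by DESeq2 (adjusted p = 0.141).

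**Figure D1:**
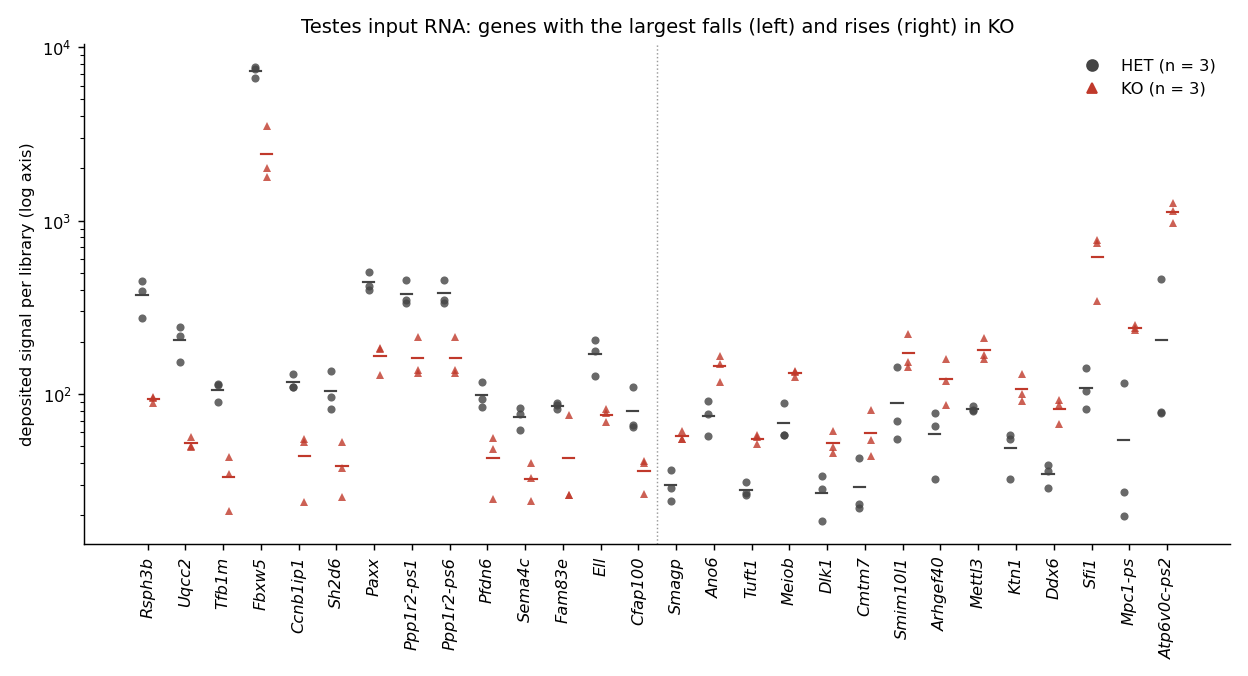
Deposited signal (log axis) of the 28 genes with given symbols that fell or rose most in KO testes input RNA; circles are HET libraries, triangles KO libraries (n = 3 each) and short lines their means. Genes are ordered by log2 fold, from Rsph3b at -1.95 to Atp6v0c-ps2 at 2.97, and were chosen among called genes whose groups do not overlap.

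Gene models without an assigned name gave the widest contrasts. The transcribed pseudogene 1700030C10Rik (ENSMUSG00000091071, chromosome 12) had 181, 207 and 168 in HET and 2.66, 1.50 and 1.64 in KO, and the pseudogene Gm8210 (chromosome 1) had 31.6, 26.8 and 36.6 in HET and 1112, 1320.0 and 1253 in KO. Gm13092 (chromosome 4) was at 0.791, 0.924 and 0 in HET and at 234, 145 and 147 in KO, and Gm10800 (chromosome 2) at 0, 2.77 and 6.37 against 74.4, 76.5 and 203. 1700084F23Rik (chromosome 13) went the other way, from 42.7, 78.5 and 66.9 to 25.7, 2.25 and 4.09. Near-complete presence in 1 genotype and absence in the other thus occurred in both directions. The antisense model 1700101I19Rik had 48.2, 63.7 and 56.6 in HET and 0, 0 and 40.1 in KO. KO replicate 3 lay close to HET there, and the call was lost without HET replicate 1, 2 or 3 or KO replicate 1 or 2, and under edgeR (adjusted p = 0.0805). The use of strand is not given in the sources used here, so antisense models cannot be told apart from genes on the other strand.

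Some markers of haploid germ cells fell in KO, and 0 rose. Of 16 round spermatid markers 14 were tested, 6 fell and 0 rose, the median log2 fold was -0.40 against -0.00 for all tested genes, and all 14 lay below 0 (13 without HET replicate 1). Of 18 elongating spermatid markers 13 were tested, 4 fell and 0 rose, the median was -0.33, and all 13 lay below 0. The sums of the markers in each list did not overlap between genotypes. Round spermatid markers summed to 9066 to 9654 in HET and 7061 to 7784 in KO. Elongating spermatid markers summed to 41349 to 44500.0 in HET and 36302 to 37470.0 in KO. Abundant genes weigh most in these sums. Odf2, which was not called, gave 24942 to 26883 of the elongating sums in HET and 22089 to 23040 in KO. Zpbp2 gave 2984 to 3033 of the round sums in HET and 2400 to 2586 in KO. Among all tested genes 29.8% had groups without overlap. For comparison, 6.01% of all tested genes were lower, and 13.3% of those in the highest quartile of signal. With the spread over all 12 testes libraries 0 members of either list were called by limma. In bulk tissue, fewer cells of a type and less RNA per cell cannot be told apart.

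Catsper4 (ENSMUSG00000048003, chromosome 4), a pore subunit of the sperm calcium channel, had 519, 561 and 523 in HET and 327, 271 and 263 in KO. Zpbp (ENSMUSG00000020193, chromosome 11), an acrosomal protein that binds the egg coat, had 190, 192 and 213 in HET and 100.1, 121 and 117 in KO. Neither overlapped between genotypes, and the log2 folds were -0.90 ± 0.103 and -0.81 ± 0.124 (SE; limma, Benjamini-Hochberg adjusted p = 0.000317 and 0.00246). Txndc8, a spermatid thioredoxin, fell by 0.51 on the log2 scale and Tssk3, a testis-specific kinase, by 0.57. These 4 genes kept the call whichever library was left out.

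Falls were also seen in Crem, a transcription factor of spermatids (-0.38 ± 0.0847), the testis lipid-binding protein Fabp9 (-0.36), Zpbp2 (-0.26), Tssk2 (-0.60), the protamine-like Prm3 (-0.43) and the spermatid antizyme Oaz3 (-0.28 ± 0.0722). Oaz3 had 9224, 9167 and 10457 in HET and 7874, 7911 and 7875 in KO. None of these 6 calls held without HET replicate 3 or without KO replicate 3, and Tssk2, Zpbp2, Fabp9, Prm3 and Oaz3 were not called when libraries were set to the same total. The list counts moved with single libraries: round spermatid markers had 2 members lower without HET replicate 2, HET replicate 3 or KO replicate 3, and 7 without KO replicate 1. Elongating spermatid markers had 2 lower without each of the same 3 libraries, and 6 without KO replicate 1. The medians stayed between -0.51 and -0.32 for round and -0.45 and -0.33 for elongating spermatids when single libraries were left out.

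Earlier germ cells gave another picture. Of 14 spermatogonia markers 9 were tested and 0 passed limma's test, nor did any pass edgeR or DESeq2 on recovered reads, and 2 were higher at an unadjusted p below 0.05, while 8 of 9 lay above 0 with a median of 0.34 and 2 were higher under equal library totals. Etv5, a factor of spermatogonial stem cells, had 44.3, 55.4 and 49.4 in HET and 72.7, 72.0 and 72.0 in KO (log2 difference 0.54 ± 0.164, limma, Benjamini-Hochberg adjusted p = 0.0552). Its groups did not overlap, and those of Id4, at 155 to 168 in HET and 186 to 228 in KO, did not either. Both were picked after their values were seen, and 22.6% of all genes not called had groups without overlap. The sum of the spermatogonia markers, in which Id4 weighs most, was 410.3 to 428 in HET and 514 to 560.0 in KO. Among 20 meiotic spermatocyte markers tested, 2 rose and 1 fell, and the median of 0.03 turned to -0.02 without HET replicate 1. Meiob and Sycp3, a protein of the synaptonemal complex, rose, and the meiotic cohesin Rec8 fell from 156, 127 and 148 to 92.2, 89.998 and 81.0. Sycp3, at a log2 fold of 0.50 ± 0.148, lost its call without any single HET library and without KO replicate 1 or 2. Of 6 late spermatocyte markers tested, Ldhc fell and 0 rose.

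Lists of sperm structures also had more members lower than higher, but they share members with the spermatid markers and so are not independent of them. All tested genes leaned the same way, with 6.01% lower and 3.32% higher. In the highest quartile of signal the shares were 13.3% and 4.86%, and whether these lists exceed them was not tested. The overlap is 7 of the 16 tested acrosome genes, 5 of 10 fibrous sheath genes, 4 of 6 testis-specific kinases and 1 each of the axoneme, CatSper and glycolysis lists. Among members not shared, 1 of 9 acrosome genes, 2 of 5 fibrous sheath genes and 0 of 2 kinases were lower. So were 7 of 43 axoneme, 1 of 9 CatSper and 4 of 8 glycolysis genes. The axoneme list, the motor and scaffold of the flagellum, had 44 of 53 members tested, with 7 lower, 1 higher and a median of -0.24, and 37 lay below 0. Beside Rsph3b and Cfap100 the members that fell were Tekt2, a tektin of the flagellar microtubules (-0.46 ± 0.0940), Cfap77 (-0.83), Cfap74 (-0.60), Cfap44 (-0.39) and Ccdc65 (-0.37), and the dynein heavy chain Dnah8 rose (0.90 ± 0.246). Dnah8 had 39.5, 88.7 and 60.5 in HET and 90.4, 109.5 and 142 in KO, so that the highest HET and lowest KO library nearly met. The count of members lower was 2 without HET replicate 2 or 3 and 4 without KO replicate 3. Of the called members, Rsph3b alone kept the call whichever library was left out, and 4 members were lower under equal library totals.

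The fibrous sheath and outer dense fibre list, the stiffening sleeves of the tail, had 10 of 13 members tested, 2 lower and 0 higher, with all 10 below 0 and a median of -0.30. Akap3, a kinase anchor of the fibrous sheath, read 440, 481 and 501 in HET and 323, 299 and 304 in KO, and it kept its call without any single library. Odf3 (log2 fold -0.35) lost it without HET replicate 1, 2 or 3 or KO replicate 3. The list had 4 members lower without KO replicate 1 and 1 without HET replicate 2 or 3 or KO replicate 3. All 6 testis-specific serine kinases were tested, 2 fell (Tssk2 and Tssk3), and all 6 lay below 0 with a median of -0.53. The acrosome and egg binding list had 3 of 16 tested members lower (Zpbp, Zpbp2 and the protease Pcsk4) and 0 higher, with a median of -0.29. Only Zpbp was called under equal library totals or without any 1 library other than KO replicate 1, and 5 members were lower without KO replicate 1. Of 10 CatSper members tested Catsper4 and Catsperd fell and 0 rose. Catsperd, at a log2 fold of -0.54 ± 0.155, lost its call whichever single library was left out and under edgeR. Of 9 sperm surface ADAMs Adam32 fell (-0.35 ± 0.0762), and it was not called without HET replicate 3 or KO replicate 3.

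Sperm glycolysis, the energy source of the flagellum, had 9 of 11 members tested, 4 lower and 0 higher, with a median of -0.24. Under equal library totals 4 were lower and 1 higher. Of all tested genes 6.01% were lower, and 13.3% of those in the highest quartile of signal. Whether this list exceeds these shares was not tested. Its member Ldhc is also the late spermatocyte marker that fell. Hexokinase Hk1 had 3685, 3390.2 and 3458 in HET and 2457, 2645 and 2544 in KO, and the lactate dehydrogenase Ldhc 2567, 2668 and 2676 in HET and 1994, 1883 and 2080.5 in KO. Neither overlapped between genotypes, with log2 folds of -0.46 ± 0.0710 and -0.41 ± 0.0719 (limma, Benjamini-Hochberg adjusted p = 0.0025 and 0.00453). The retrogene aldolase Aldoart2 (-0.54 ± 0.0844) and the phosphoglycerate mutase Pgam2 (-0.55 ± 0.0873) fell as well. These 4 calls held without every single library, with edgeR, with DESeq2 and under equal library totals.

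**Figure D2:**
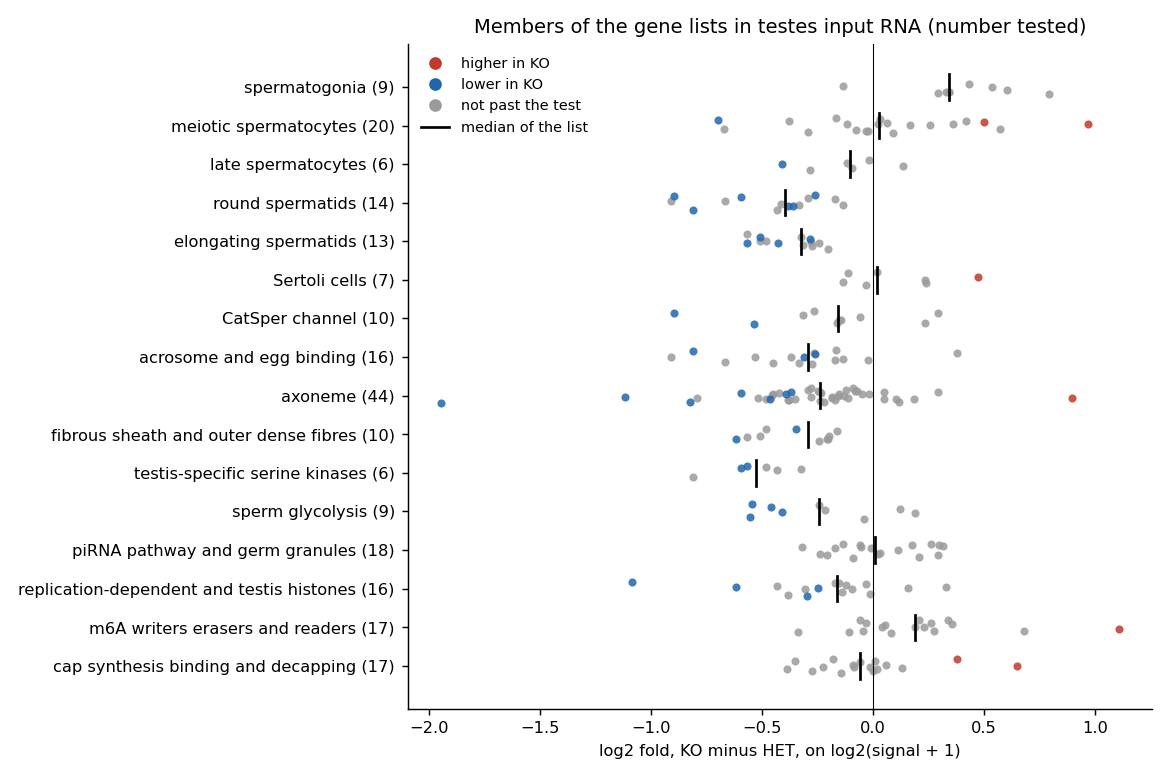
Log2 folds (KO minus HET, on log2(signal + 1)) of the members of 16 gene lists, 1 point per tested gene with the number tested in brackets; red points are higher and blue points lower in KO, grey points did not pass limma's test, and black bars are medians. All 14 round and 13 elongating spermatid markers lie left of 0, and 8 of 9 spermatogonia markers lie right of it without passing the test.

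Among m6A writers, erasers and readers 17 of 21 were tested, 1 rose and 0 fell, with a median of 0.19. Of all tested genes 3.32% rose and 6.01% fell, and whether this list differs from them was not tested. Mettl3 (ENSMUSG00000022160, chromosome 14), the catalytic subunit of the m6A methyltransferase, had 85.4, 81.3 and 79.7 in HET and 160, 212 and 167 in KO. KO lay far above HET in every library, at a log2 fold of 1.11 ± 0.139 (limma, Benjamini-Hochberg adjusted p = 0.000675), and the call held without every single library. Mettl14, the partner of METTL3, had 11.9 ± 1.34 and 12.4 ± 1.596 (SD, n = 3), and the demethylase Fto 423 ± 24.4 and 410.4 ± 17.8. The demethylase Alkbh5 was low, at 12.7 ± 2.07 and 20.8 ± 2.15, and did not pass (log2 difference 0.68 ± 0.278). Its groups did not overlap, as for 22.6% of all genes not called.

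Among genes of cap synthesis, cap binding and decapping 17 of 24 were tested, 2 rose and 0 fell. The median of -0.06 moved to 0.00 under equal library totals. For comparison, 9.33% of all tested genes were called, and 13.9% of those on chromosome 17, where both risers lie. Whether this list exceeds these shares was not tested. Dxo (chromosome 17), an exonuclease that removes defective caps, had 513, 656 and 521 in HET and 992, 832 and 822 in KO (log2 fold 0.65 ± 0.109). Nudt3 (chromosome 17), a hydrolase with decapping activity, had 867, 901 and 896 in HET and 1135, 1124 and 1208 in KO (0.38 ± 0.0761). Both kept the call whichever library was left out. The cap methyltransferase Cmtr1 had 298 ± 25.2 in HET and 280.7 ± 19.4 in KO, and the exonuclease Xrn1 had 125 ± 12.1 and 118 ± 18.0.

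For housekeeping systems the calls are set against the 9.33% of all tested genes. Ribosomal proteins had 79 of 88 members tested, 6 lower and 1 higher, and their median of -0.01 turned positive with edgeR, with DESeq2, under equal library totals (0.06) and without HET replicate 3. Rpl29 had 3818, 3943 and 4168 in HET and 2708, 3096 and 2846 in KO, Rpl14 rose from 236 ± 2.68 to 337 ± 12.8 (SD, n = 3), and many ribosomal protein genes have processed pseudogenes that could share reads. The members lower numbered 2 without HET replicate 3 and 3 without KO replicate 2. Nuclear-encoded oxidative phosphorylation had 3 of 67 tested lower (Atp5s, Ndufb10, Ndufa12) and Atp5g2 higher, and its median of -0.06 turned to 0.01 under equal library totals, where 4 were higher and 0 lower. Atp5s, Ndufb10 and Ndufa12 each lost the call without HET replicate 3 and without KO replicate 3. Proteasome subunits had 2 of 35 higher (Psma7 and Psmd14) and 0 lower, with a median of 0.13 and 24 above 0, and both lost the call without HET replicate 1 or 3 or KO replicate 2. The piRNA pathway, which silences transposons in germ cells, had 0 of 18 called by limma or edgeR and 1 higher by DESeq2, with members between -0.32 and 0.32, and 5 higher and 2 lower at an unadjusted p below 0.05. Its median of 0.01 turned negative without HET replicate 3 or KO replicate 3.

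Mitochondrially encoded mRNAs were scarce, with 4 of 13 tested and 2 higher, mt-Atp6 (246, 188 and 234 in HET and 389, 316 and 333 in KO) and mt-Nd4. Their values agree within 1% with those of the nuclear models Gm10925 and Gm28439, so the source of these reads is uncertain, and mt-Nd4 lost its call without HET replicate 2 or 3 or any KO library. Histones had 4 of 16 tested lower and 0 higher. For this and the other lists of this paragraph, 6.01% of all tested genes were lower and 3.32% higher. Whether the lists differ from these shares was not tested. Hist1h2ba, the testis variant of H2B, had 219, 217 and 237 in HET and 61.1, 137 and 138 in KO, with KO replicate 1 lowest, and it was not called without HET replicate 3. Hist1h2bp fell by 0.62 on the log2 scale and kept the call whichever library was left out, while H3f3a and Hist2h2aa2 fell by 0.25 and 0.30 and were not called without HET replicate 2 or 3 or KO replicate 2 or 3, nor under equal library totals. Among long non-coding RNAs, Neat1, the scaffold of paraspeckles, and the imprinted Meg3 were lower and 0 of 13 higher, and both lost the call without HET replicate 2 or 3. Neat1 also lost it without KO replicate 3 and Meg3 without HET replicate 1.

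Several defining somatic markers were nearly absent, while others such as Clu (308 to 364 per library) and Wt1 (135 to 239), both Sertoli cell markers, were well detected. Sertoli cells had 7 of 14 markers tested and Wt1 higher (0.47 ± 0.135), which was not called without HET replicate 2 or 3 or KO replicate 1 or 2. The summed Sertoli markers, in which Clu and Wt1 weigh most, were 668 to 761 in HET and 777 to 830.2 in KO, and Sox9 was at 1.77 or less. Leydig cells had 3 of 8 tested and 0 called by limma, edgeR or DESeq2 (1 higher at an unadjusted p below 0.05), with sums of 131 to 185 and 105 to 182. Macrophage markers had Aif1 lower (-0.29), at 1253 to 1754 per library, while the other 3 tested members lay at 28.5 or less and Lyz2 was at 0 in every library. Aif1 was not called under edgeR, under equal library totals, or without any HET library or KO replicate 2 or 3. The part of Sertoli, Leydig and macrophage content in the results above was not tested. Peritubular and vascular markers had 1 of 12 tested and 0 called by limma, edgeR or DESeq2, also at an unadjusted p below 0.05, with sums of 33.2 to 48.0 in HET and 45.0 to 51.7 in KO. Blood and epididymis markers had 0 tested, and Hbb-bs and Crisp1 were at 0 in every library.

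Antigen presentation had 7 of 23 tested and 2 called, in opposite directions, beside 9.33% of all tested genes called. The peptide transporter Tap1 was higher (5.53, 8.31 and 6.37 in HET and 20.4, 21.0 and 17.2 in KO) and the class I gene H2-K1 lower (642, 412 and 521 in HET and 181, 335 and 272 in KO). Both lie in the histocompatibility region of chromosome 17, and the call of Tap1 was lost without HET replicate 3 or KO replicate 2. Interferon-stimulated genes had 0 of 9 and the integrated stress response 0 of 6 called by limma, edgeR or DESeq2. At an unadjusted p below 0.05 these were 0 interferon-stimulated genes, and 1 higher and 1 lower in the stress response.

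Longer non-coding classes leaned lower. LincRNAs had 38 of 365 lower and 5 higher (10.4 and 1.37%), with a median of -0.27, and antisense genes 23 of 292 lower and 5 higher, with a median of -0.25. Processed pseudogenes leaned the other way, with 28 of 479 higher and 15 lower (5.85 and 3.13%) and a median of 0.07. Protein-coding genes had 322 of 9560 higher and 560.0 lower (3.37 and 5.86%). Calls rose with signal: in the lowest quartile of signal 1.28% of genes were lower and 1.21% higher, and in the highest, above 232, 13.3% were lower and 4.86% higher. Why the calls and their balance of directions move with signal was not tested.

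Called genes were unevenly spread over chromosomes. Chromosome 14 had the largest share called among autosomes, 16.2% of 463 tested genes, with 60 lower and 15 higher. Chromosome 17 followed with 13.9% of 582 genes, 45 lower and 36 higher, and chromosome 12 with 11.6% of 423 genes, 38 lower and 11 higher. Chromosome 18 had the smallest share, 5.96% of 218. The X chromosome was the only one with more than 100 tested genes where more genes were higher than lower, 19 against 7 of 356. Without a run of neighbours described next, chromosome 14 had 13.0% called, 40 lower and 15 higher.

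**Figure D3:**
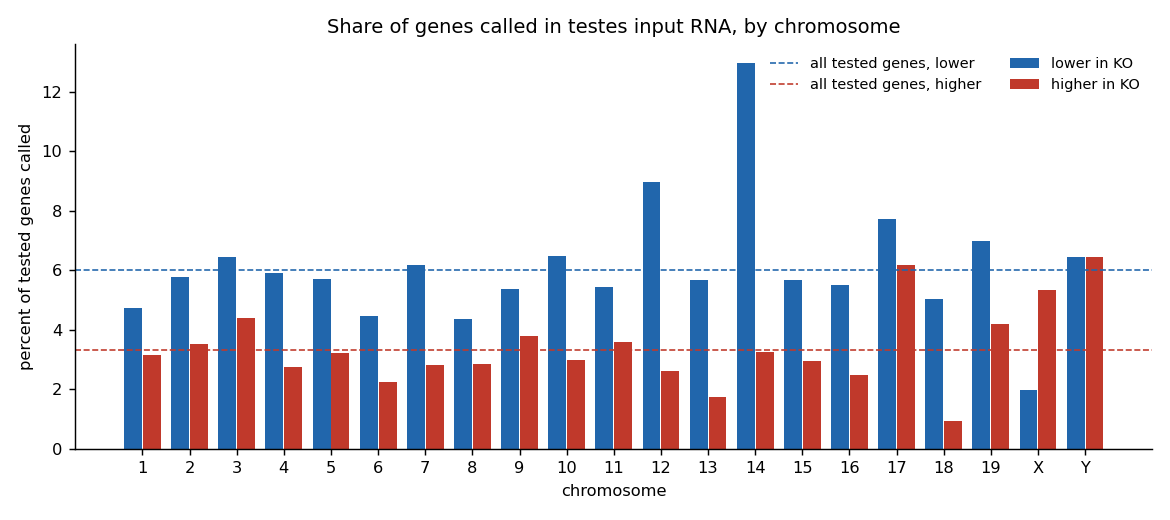
Percent of tested genes lower (blue) and higher (red) in KO testes input RNA on each chromosome, with dashed lines at 6.01% and 3.32% for all tested genes. Chromosome 14 reaches 13.0% lower, and on the X chromosome higher genes (5.34%) outnumber lower ones (1.97%).

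Neighbouring genes changed together in several places. In RefSeq gene order, windows of 20 tested neighbours held a median of 2 called genes, and 107 of 10327 windows held at least 7. At the start of chromosome 14, 20 of 41 genes from Gm2888 to 2610318M16Rik were lower and 0 higher, with a median of -0.71. Gm3642 had 55.3, 49.9 and 60.5 in HET and 23.9, 22.5 and 13.1 in KO. On chromosome 5, 14 of 23 genes from Gm5152 to 4933402N22Rik were lower and 0 higher, with a median of -0.73, among them Speer1, a member of a family of glutamate-rich sperm proteins. Gm5152 had 228, 226 and 231 in HET and 130.3, 109 and 101 in KO. Both runs consist largely of related gene models, which could share reads and are not independent observations, although the run on chromosome 14 also holds genes such as Abhd6, Pxk and Pdhb, which were not called. Without both runs 644 genes were lower and 374 higher.

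Other windows mixed unrelated genes with some paralogs. From Tfb1m to Rnaset2b on chromosome 17, 6 of 20 genes were lower and 5 higher, where the indistinguishable Ppp1r2-ps1 and Ppp1r2-ps6 count as 2 of the lower ones, and the paralogous dynein light chains split, with Dynlt1a lower (289 ± 17.8 to 208 ± 25.3, SD, n = 3) and Dynlt1c (2526 ± 139.9 to 3056 ± 254) and Dynlt1f (744 ± 35.1 to 912 ± 67.5) higher. From Snx6 to Sec23a on chromosome 12, 8 of 20 were lower and 0 higher, among them Srp54a, Srp54c, the actin regulator Cfl2 and Aldoart2. From Tprn to Tmem141 on chromosome 2, 7 were lower and 1 higher, with Fbxw5, Paxx, C8g and Ptgds falling and the peptidase Dpp7 rising from 9.02 ± 3.77 to 35.4 ± 6.24. From Adamts10 to H2-K1 on chromosome 17, 5 were lower and 3 higher, with Rps28, Rps18, Pfdn6 and H2-K1 falling and Wdr46 rising from 120.3 ± 2.97 to 185 ± 0.287. On chromosome 14, Ktn1, Ccnb1ip1, Arhgef40 and Mettl3 lie within 30 tested neighbours, and 3 of them rose and 1 fell. These genes were singled out after their values were seen, so they cannot show whether this place holds more calls than elsewhere. Without the runs, 13.0% of tested genes on chromosome 14 and 9.08% of all tested genes were called. Since the mutation was made in a hybrid of 2 strains, strain alleles at these places and the Pcif1 genotype cannot be told apart.

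**Figure D4:**
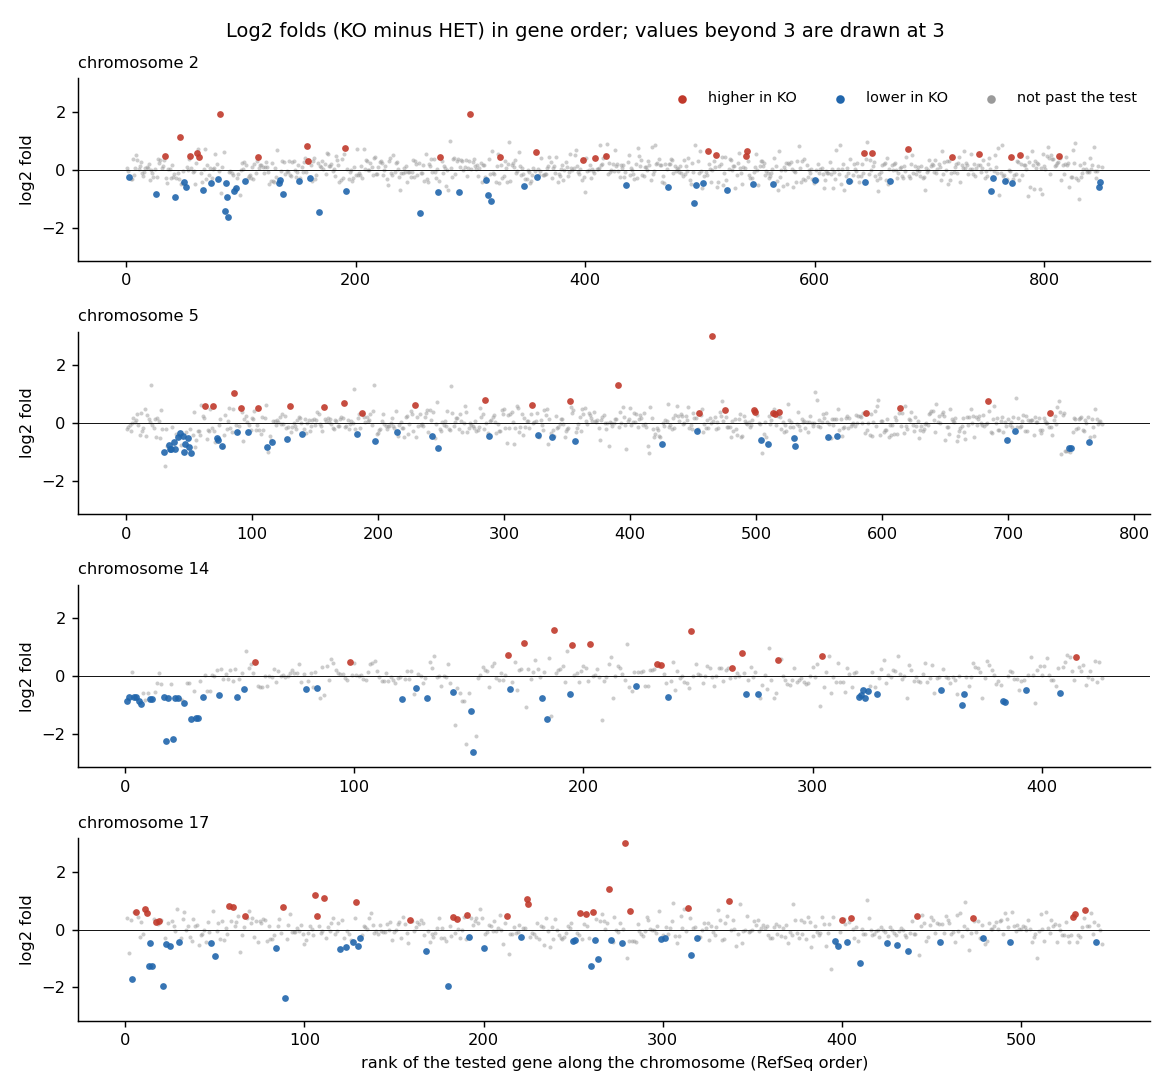
Log2 folds (KO minus HET) of tested genes in RefSeq order along chromosomes 2, 5, 14 and 17, with rank on the horizontal axis; red points are higher and blue points lower in KO, and values beyond 3 are drawn at 3. The starts of chromosomes 14 and 5 show runs of blue points (20 of 41 and 14 of 23 genes), and on chromosome 17 red and blue points alternate.

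The annotated first base was compared with the fold because PCIF1 acts at adenosine. RefSeq promoters matched 7725 of 9560 tested coding genes (80.8%), 450 of 560 lower ones and 258 of 322 higher ones. Among 2196 genes that start with A, 7.06% were lower and 2.91% higher, against 5.34% lower and 3.51% higher among 5529 genes that start with another base. The medians were -0.01 and 0.03, and under equal library totals both were positive (0.05 and 0.09) with 4.64 and 3.54% lower. With single libraries left out, 2.05 (without HET replicate 3) to 9.61% (without KO replicate 1) of genes that start with A and 1.52 to 7.63% of the others were lower. Each KO library set against the HET mean, which the 3 share, gave the same order, with medians of -0.02, -0.01 and -0.00 for A and 0.01 to 0.06 for C, G and T. Seen from the calls, 34.4% of lower genes, 28.2% of genes not called and 24.8% of higher genes start with A.

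Promoter composition moved with both. The median GC content of the 300-base windows was 57.0% for lower genes, 61.3% for genes not called and 64.0% for higher genes. In the lowest quartile of GC content 12.5% of genes that start with A were lower against 8.15% of the others, and in the quartiles between the shares were 5.79 against 5.73% and 4.42 against 4.19%. In the highest quartile the order turned, with 2.68% of genes that start with A and 3.82% of the others lower. Over all first bases, the share lower ran from 9.73% in the lowest to 3.57% in the highest quartile, and the share higher from 2.33% to 4.61%. The part of promoter composition in the difference between first bases was not tested. No p-value is given for these shares, since neighbouring and related genes are not independent.

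**Figure D5:**
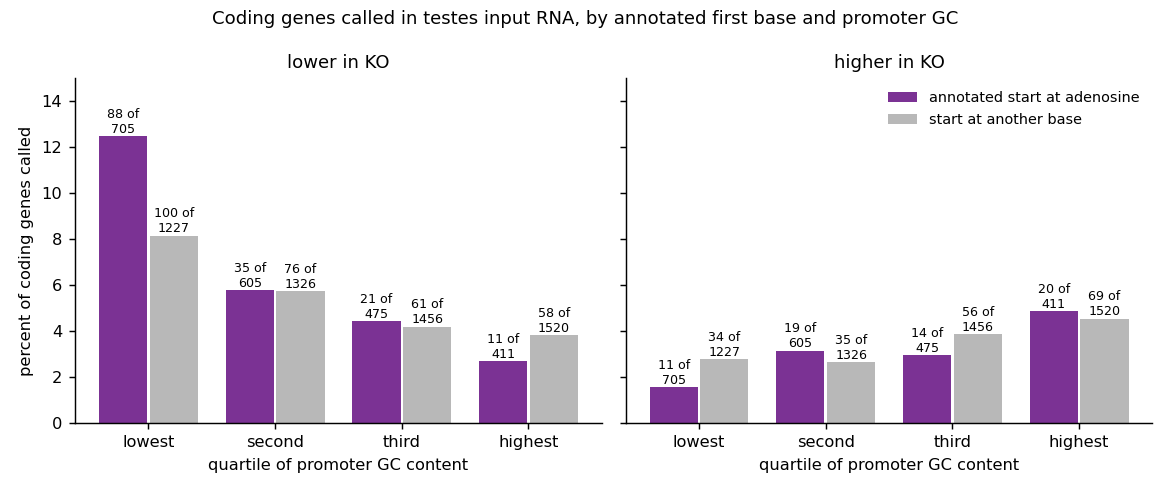
Percent of tested coding genes lower (left) and higher (right) in KO, by quartile of promoter GC content, for genes whose annotated start is at adenosine (purple) or at another base (grey); the labels above the bars give the genes called of those in the group. The shares differ most in the lowest quartile (12.5% and 8.15% lower) and turn in the highest (2.68% and 3.82%).

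Promoter motifs were counted on both strands in the windows of 300 bases. The cyclic AMP response element TGACGTCA, the site of CREM and related factors, was in 4.00% of lower, 1.94% of higher and 3.66% of not called genes, and in 1.85% of all 27025 promoters of the table. CCAAT was in 38.0, 38.8 and 39.0%, against 38.0% of all promoters. TATAAA in the 50 bases before the start was in 0.444, 1.94 and 1.08%, against 3.78% of all. The shares for TGACGTCA rest on 18 lower and 5 higher genes, and those for TATAAA on 2 and 5, and a match is not a measured site.

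The precipitated testes libraries of the same genotypes gave values for the same genes in other libraries, with 2988 of 11345 genes called between KO and HET (26.3%), 1308 higher (11.5%) and 1680.0 lower (14.8%). The labels do not say whether they share animals with the inputs, so the values are set side by side only. Since methylated RNA ends were precipitated, RNA level and the mark cannot be told apart in a precipitated fold. It is thus not a second measure of RNA level. For Rsph3b the precipitated log2 fold was -1.98 ± 0.258 (SE) beside -1.95 in the input, for Fbxw5 -1.44 ± 0.218 beside -1.65, and for Mettl3 1.11 ± 0.300 beside 1.11. For Uqcc2 and Tfb1m it was -3.50 ± 0.366 and -3.48 ± 0.341 beside -1.93 and -1.70, for Zpbp -2.58 ± 0.368 beside -0.81, and for Ldhc -2.31 ± 0.195 beside -0.41. Other genes differed in the precipitated libraries. Ccnb1ip1 was low there, at 7.15 to 12.4 in HET and 4.49 to 17.1 in KO. Its log2 difference there was 0.27 ± 0.607, which did not pass, beside -1.48 in the input. Sema4c had 0.21 ± 0.375 beside -1.19, Rec8 0.04 ± 0.257 beside -0.70, Rpl29 0.24 ± 0.206 beside -0.46, Tuft1 0.02 ± 0.371 beside 0.96, and Sycp3 -0.35 ± 0.295 beside 0.50, and none of these 5 passed there. By annotated first base, the median precipitated fold was -0.06 for A, 0.03 for C, 0.06 for G and 0.03 for T.

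Brain input RNA of KO and wild-type mice, the inputs of ribosome profiling, had 39 of 15298 genes called by limma (0.255%), 27 higher (0.176%) and 12 lower (0.0784%). Of the 1052 genes called in testes 640 were tested in brain, and 2 were also called there. This is 0.190% of all testes calls, tested in brain or not, and 5.13% of the brain calls. For comparison, 9.33% of genes tested in testes and 0.255% of those tested in brain were called. Atp6v0c-ps2 was higher in both, at 139, 149 and 207 in wild-type and 433, 431 and 452 in KO brain. Rps18 was lower in both, at 446, 435 and 421 in wild-type and 170.3, 162 and 160.1 in KO brain, and at 1269, 1024 and 1376 in HET and 993, 944 and 894 in KO testes. In testes the call of Rps18 was lost without HET replicate 1 or 3 or KO replicate 2 or 3 and under equal library totals. Across the 8429 genes tested in both tissues Pearson's r of the folds was 0.05, and across the 640 testes calls tested in brain 0.15. These are correlations across genes, which are not independent replicates. Fbxw5 and Mettl3 had brain log2 differences of -0.03 ± 0.137 and 0.05 ± 0.273, and Rsph3b had 61.8, 52.8 and 67.2 in wild-type and 27.0, 38.3 and 31.8 in KO brain, which did not pass (limma, Benjamini-Hochberg adjusted p = 0.257).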

How the data were processed

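Values came from a table of m6Am-Exo-Seq libraries of testes and, for comparison, a table of brain libraries. The authors deposited a signal per gene and library, which in testes is the read number over 1 factor per library. Brain values did not reduce to whole reads in this way, which held for 1.78 to 2.33% of brain input values above 0. Per the submitters' processing notes, STAR, DESeq, DESeq2 1.25.10, Salmon 0.12.0 and R 3.6.2 were used, in roles they do not name. Build, annotation and use of strand: not given in the sources used here. In testes, dividing by what 1 read is worth gave whole reads for 100% of the values above 0, within a tolerance of 0.01, so whole reads were recovered for edgeR and DESeq2, on which edgeR called 1089 and DESeq2 956 genes. The deposited log2 fold and adjusted p-value of the authors were not used.

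Log2(signal + 1) was fitted with limma 3.58.1 (empirical Bayes with trend, R 4.3.3) on the 6 libraries of a comparison, for genes at 10 or more in at least 3 libraries, with Benjamini-Hochberg adjustment at 0.05 over all tested genes. Folds on this scale understate changes of low genes. edgeR 4.0.16 (quasi-likelihood) and DESeq2 1.42.0 were alternatives. The limma and edgeR fits, but not DESeq2, were tested on simulated reads, with the same excess over counting noise for all genes and libraries. Replicates were numbered in accession order. No pair of replicates was identical, and their spread exceeded counting noise (chi-square 2.71 to 7.27 per gene, highest with KO replicate 1). Genes are placed on chromosomes as the deposited table gives them, and RefSeq GRCm38.p6 gave gene order and promoters. Named genes were the 14 largest changes in each direction among called genes with given symbols, without overlap and with a mean of at least 50 in the higher group, 3 other models in each direction, called list members and genes called in both tissues. Members of windows of neighbours, Etv5, Id4 and list members that did not pass were named after their values were seen. The comparison and the gene lists were chosen with earlier results of these data known.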

Additional observations from a re-analysis of the deposited data

How the results depend on the processing

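No paired analysis was possible because the labels carry no replicate numbers. Directions of the called genes named here held under every setting run, and 44 of 88 kept the call without every single library. With single libraries left out, genes higher in KO testes inputs numbered 91 to 508 and genes lower 184 to 937 (374 and 678 with all 6); precipitated libraries gave 704 to 1321 and 950.0 to 1594 (1308 and 1680.0), and brain inputs 11 to 16 and 3 to 19 (27 and 12). Equal library totals gave 581 higher in testes inputs. Spread over all 12 testes libraries left 9 higher and 15 lower. In brain, a pseudocount of 0.1 and a filter of at least 50 each gave 17 higher. Of the 88 named genes, edgeR called 84, DESeq2 79, and equal totals 69. Of the list medians, those of cap genes, ribosomal proteins and oxidative phosphorylation changed sign with the scaling. The causes were not tested. With 4151226 to 4971554 reads and 3 libraries each, small changes of genes near the filter were not detectable.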
